A study of Mus musculus and Homo sapiens with 41 samples.

Results

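WT granulocyte-monocyte progenitors (GMPs) sorted from mouse bone marrow were set against the control of the 416b cell line, gene by gene, over the 12367 of 12978 genes shared by the 2 RNA-seq tables whose value reached 10 normalized counts in either cell. The members were all genes of the GMP table (53756 rows) and of the 416b table (13238 rows) that could be joined by symbol and passed this filter. The WT GMPs were C57BL/6 cells of wild-type Zbtb16 genotype, taken after transplantation of total bone marrow into lethally irradiated Cd45-1 recipients, and purified as Lineage-, Cd45+, C-Kit+, Sca-1-, Cd34+ and FcγR+ cells. Their table holds 2 library columns for 1 WT sample, with different dates in their headers. The study's methods describe independent RNA extractions for GMPs, and the sources used here do not say what step the dates mark or whether the libraries came from separate animals. The 416b control cells were a Cd34+ murine myeloid line in suspension culture, transduced with an empty-FLAG-GFP lentivirus (Empty vector) and sorted for GFP, and they gave 1 library. A second 416b library, from cells transduced with PLZF-Flag, gives the spread between libraries of that line and a second 416b value for some genes. It also replaced Empty vector in an alternative setting. GMPs of the mutant Zbtb16lu/lu genotype, also taken after bone marrow transplantation, replaced WT in another alternative setting only. PLZF is the protein encoded by Zbtb16, and the study forced its expression in 416b cells beside its work in primary GMPs, so the comparison asks how the line and the primary cell differ before that. No statistical test between GMPs and 416b cells was possible, because the control was a single library made with another kit, and all differences are given as descriptions.

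GMPs are the progenitors from which neutrophils and monocytes are made. In normal bone marrow they express genes for the contents of azurophil (primary) granules, which are made at the promyelocyte stage under the control of C/EBP factors and PU.1. Gata2, Gata1, Gfi1b and their partners act instead in stem cells and in the megakaryocyte, erythroid and mast cell lineages. A cell line used in place of a primary progenitor keeps dividing in culture, so growth and lipid synthesis genes are among those in which the line and the primary cell are commonly compared.

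Because the GMP libraries were made from ribosome-depleted total RNA and the 416b libraries from poly(A)-primed cDNA, each gene was given a percentile rank within its own library, from 0 for the lowest to 100 for the highest of the 12367 values. A gene was called where its percentile in both WT libraries lay at least 25 points above, or below, that in Empty vector. The same genes were also compared by a centred log2 ratio, WT over Empty vector after adding 1 to each value, shifted so that the median of all genes was 0. By percentile, 723 genes (5.85%) were called higher and 831 (6.72%) lower in WT GMPs, and these shares are the background for each count of list members by percentile. By a centred log2 ratio of at least 2 in both libraries, 1193 (9.65%) were higher and 1185 (9.58%) lower. Between the 2 WT libraries, 5 genes (0.0404%) differed by 25 points, and between PLZF-Flag and Empty vector 1 gene (0.00809%) did. Spearman's rho across genes, which are not independent replicates, was 0.990 between the WT libraries, 0.998 between the 416b libraries, and 0.786 and 0.775 between each WT library and Empty vector. At the threshold, the smaller difference of Zfp950, just called, was 25.0101 points, and that of Slco4a1, just missed, was -24.9858. After rounding, the WT libraries held 40200000 and 40000000 reads, Empty vector 54500000 and PLZF-Flag 20000000, as recovered from the smallest step between values. Of the ranked genes, 718 reached 10 only in WT GMPs and 473 only in Empty vector, and such genes were bound to have a low rank in the other cell.

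**Figure D1:**
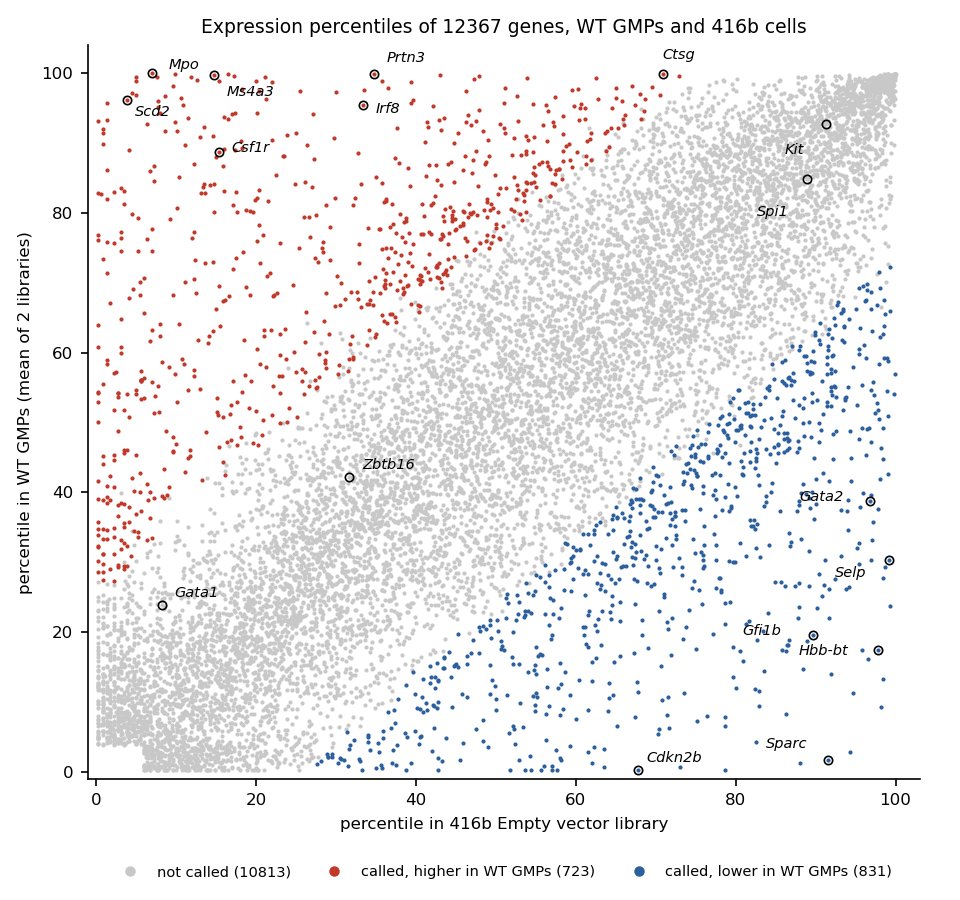
Percentile of each of the 12367 ranked genes in the 416b Empty vector library (horizontal axis, 0 to 100) and in WT GMPs (vertical axis, mean of 2 libraries). Each point is 1 gene, with the 723 genes called higher in red and the 831 called lower in blue, and circled genes are those named in the text. Mpo and Scd2 lie at the upper left, Sparc and Hbb-bt at the lower right, and Kit and Spi1 near the diagonal.

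The granule markers Mpo and Elane were abundant in WT GMPs, and Gata1 was low in both cells. Mpo, the myeloperoxidase of azurophil granules, had 477326 and 483375 normalized counts in the WT libraries and 12.1 in Empty vector and 3.31 in PLZF-Flag. The Empty vector value rests on 20 reads, with an exact 95% Poisson interval of 7.39 to 18.7 normalized counts that covers counting error only. Mpo (GRCm38, the assembly also named mm10, chr11:87793581-87804413) ranked 1 among the genes of WT GMPs and 11482 in Empty vector, and per kb of exon its WT rank was 3 of 12277 genes with a known length. Elane (chr10:79886247-79888215), neutrophil elastase, had 37949 and 36604 normalized counts in the WT libraries and has no value in the 416b table, which lists only genes above 0 in both 416b libraries. Gata1 (chrX:7959260-7978071), the erythroid and megakaryocyte factor, was low in both cells, with 214 and 213 in WT with 15.1 in Empty vector and 43.0 in PLZF-Flag, and its percentile was 23.9 in WT and 8.29 in 416b, under the threshold of 25 points, while its centred log2 ratio of 3.62 was called higher in WT GMPs. Zbtb16 (chr9:48654297-48836222) was expressed in both, at 705 and 828 in WT GMPs and 382 in Empty vector, and reached 2541 in the library that carries PLZF-Flag. Its percentile was 42.1 in WT GMPs and 31.7 in Empty vector, a difference of 10.5 points that was not called. By these markers the GMP label fits the WT libraries, whereas Mpo rested on few reads in the 416b libraries.

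The surface genes of the GMP sort were present in both cells. Kit, the stem cell factor receptor, had 6511 and 7338 in WT and 6434 in Empty vector, and Cd34 had 12396 and 17633 and 11059, so that neither differed by more than 2 points. Ptprc, which encodes Cd45, was at 8762 and 11209 against 5571. Of the Fcγ receptors, Fcgr3 had 9761 and 11136 against 3108 (17.8 points, not called) and Fcgr2b 3338 and 3932 against 512 (45.6 points, called higher). Ly6a, the gene of Sca-1, was low in all libraries, with 68.6 and 20.3 in WT and 2.42 in Empty vector. Of the antigens depleted before sorting, Cd5 stood at 26.8 and 9.64 and Ly6g at 2.98 and 4.82 in WT, whereas Ly6c2, a monocyte and granulocyte surface protein, stood at 31606 and 37387 and is not in the 416b table. Itgam, the gene of Cd11b, was at 6023 in Empty vector. Its symbol occurs more than once in the GMP table, so no WT value was assigned.

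The primary granule list, which also holds the membrane proteins Ms4a3 and Clec12a, had a median difference of 75.0 points. On the percentile scale this was the largest of all lists. Per kb of exon, however, it was 64.10 with 5 of 8 called, and the replication-dependent histones stood above it at 71.48. Of 10 members, 8 were ranked, 7 were called higher in WT GMPs beside 5.85% of all genes, and none was lower. Of the 7 that reached 10 in both cells, 6 were called, and Clec12a was ranked through WT alone. The median over all ranked genes was 0.307 points. Prtn3, proteinase 3, had 79932 and 52884 normalized counts in WT and 469.6 in Empty vector (centred log2 ratio 7.03). Ctsg, cathepsin G, had 107666 and 115134 against 2318 (5.47), the smallest ratio among the ranked proteases of the list, and its difference of 29.1 points became 7.17 per kb of exon and 17.47 with all genes of the GMP table ranked and those not listed for 416b set to 0 there, both under the threshold. Ms4a3, a membrane protein of GMPs, had 40959.5 and 40885 against 49.0, and Prss57, another granule serine protease, 10663 and 9669 against 13.9. Clec12a, an inhibitory lectin receptor of myeloid cells, had 17085 and 25441 against 7.87. Cst7, cystatin F, was called higher at 9281 and 10349 against 1088, where 44.7 points became 14.89 per kb of exon. Serpinb1a, the inhibitor of the neutrophil serine proteases, was not called at 17016 and 20087 against 4910.4. The remaining members, Elane and Igsf6 (9914 and 11699.7 in WT), are not in the 416b table. All WT values lay above both 416b values for these 8 genes. In bulk libraries, fewer cells that express a gene and less RNA per cell cannot be told apart.

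The 250 bases before the start of 4 of these granule genes are shown because they share 1 word. Mpo, Prtn3 and Ctsg were called higher, and Elane has no 416b value. They are RefSeq sequences on GRCm38.p6, whose starts can differ from the gene coordinates above, 5′ to 3′ on the gene's strand, with capitals marking matches on either strand to AGATAA (the core bound by GATA factors), TTGCNNAA (C/EBP), AGGAAGT (PU.1) and TGTGGT (RUNX), whose reverse complements include ACTTCCT and ACCACA.
Mpo promoter, chr11:87793534-87793783, plus strand: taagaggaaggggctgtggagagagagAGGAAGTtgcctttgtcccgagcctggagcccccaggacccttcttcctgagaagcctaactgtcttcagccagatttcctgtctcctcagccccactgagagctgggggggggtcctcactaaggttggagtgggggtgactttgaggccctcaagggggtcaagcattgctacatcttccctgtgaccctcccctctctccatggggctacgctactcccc
Elane promoter, chr10:79886062-79886311, plus strand: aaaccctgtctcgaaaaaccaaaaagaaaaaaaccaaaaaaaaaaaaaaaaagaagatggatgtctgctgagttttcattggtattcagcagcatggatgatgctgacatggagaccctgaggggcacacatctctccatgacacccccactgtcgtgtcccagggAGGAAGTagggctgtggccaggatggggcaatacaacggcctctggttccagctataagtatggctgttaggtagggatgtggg
Prtn3 promoter, chr10:79879417-79879666, plus strand: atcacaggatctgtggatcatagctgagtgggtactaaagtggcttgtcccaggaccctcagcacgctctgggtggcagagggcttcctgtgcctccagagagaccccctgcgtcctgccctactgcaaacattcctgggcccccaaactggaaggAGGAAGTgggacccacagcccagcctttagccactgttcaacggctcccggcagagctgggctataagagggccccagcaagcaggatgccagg
Ctsg promoter, chr14:56102575-56102824, minus strand: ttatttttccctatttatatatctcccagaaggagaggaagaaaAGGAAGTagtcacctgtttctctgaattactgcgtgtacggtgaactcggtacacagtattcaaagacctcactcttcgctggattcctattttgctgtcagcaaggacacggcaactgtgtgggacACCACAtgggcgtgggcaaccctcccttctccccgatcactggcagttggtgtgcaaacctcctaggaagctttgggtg

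AGGAAGT occurred once in each of the 4, at 223, 84, 94 and 206 bases before the start of Mpo, Elane, Prtn3 and Ctsg, and AGATAA in none. Over windows of 300 bases that reach 50 bases past the start, 8 of the 10 members of the primary granule list were matched in RefSeq. AGGAAGT was found in 5 of their 8 windows (62.5%) beside 9.35% of all 32851 windows. TTGCNNAA and TGTGGT were each found in 3 of 8 (37.5%), beside 10.8% and 16.8% of all windows, and AGATAA in 0 of 8 beside 11.2%. A match is a description of the sequence and not a bound site. Spi1, the gene of PU.1, is given with the transcription factors.

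Genes of later neutrophils were mixed. Of 20 members, 8 were ranked, with 5 called higher, 1 lower (beside 5.85% and 6.72% of all genes) and a median of 34.3 points, which was 19.98 over 18 genes, with 2 lower, when unlisted genes were set to 0. Only 4 of the 8 reached 10 in both cells, and of these 3 were called higher and 1 lower, while genes ranked through WT alone, such as Lcn2 and Padi4, could hardly do otherwise than lie on the GMP side. Lyz2, lysozyme, had 4398 and 5574 in WT against 553 in Empty vector, Lcn2, the siderophore-binding lipocalin of secondary granules, 801 and 513 against 2.42, and Pglyrp1, a peptidoglycan-binding granule protein, 1089.8 and 1181 against 12.7. Padi4, which citrullinates histones in neutrophils, had 501 and 463 against 3.03. In the other direction, Cxcr2, the chemokine receptor that draws neutrophils out of the marrow, had 216 and 320.2 in WT and 8053 in Empty vector (-67.7 points). The alarmins S100a8 (8098 and 3967) and S100a9 (4284 and 1432) differed between the WT libraries and are not in the 416b table. The NADPH oxidase that these cells carry was read in both. None of its 5 ranked subunits was called, with Ncf1 at 12992 and 10576 against 8993. Cybb, its catalytic subunit, had 2968 and 3005 in WT and no value in the 416b table, while its partner Cyba had 4269.9 and 3405 against 6609.

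Of 13 ranked monocyte and dendritic cell genes, 7 were called higher and 0 lower (beside 5.85% and 6.72% of all genes), with a median of 26.6 points. With unlisted genes set to 0, 7 were higher, 1 was lower and the median was 15.88 points. Only 8 reached 10 in both cells, of which 4 were called higher, and Mpeg1, Klf4 and Cx3cr1 were ranked through WT alone. Mpeg1, the pore-forming perforin-2 of macrophages, had 3186 and 4186 in WT against 1.82 in Empty vector. Csf1r, the M-CSF receptor, had 4780.0 and 5819 against 53.3, and Ccr2, the receptor that brings monocytes out of the marrow, 5083 and 6681 against 144. Klf4, a transcription factor of monocytes, was at 697 and 593 against 1.82, and F13a1, coagulation factor XIII A, at 30767 and 35769 against 2503. Cd14, the lipopolysaccharide co-receptor, was not called and was higher in the line, at 371 and 407 against 953. Ms4a6c (3255 and 4689) and Ly86 (2128 and 2570.3), which pairs with a Toll-like receptor relative, were at these values in WT and are not in the 416b table.

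**Figure D2:**
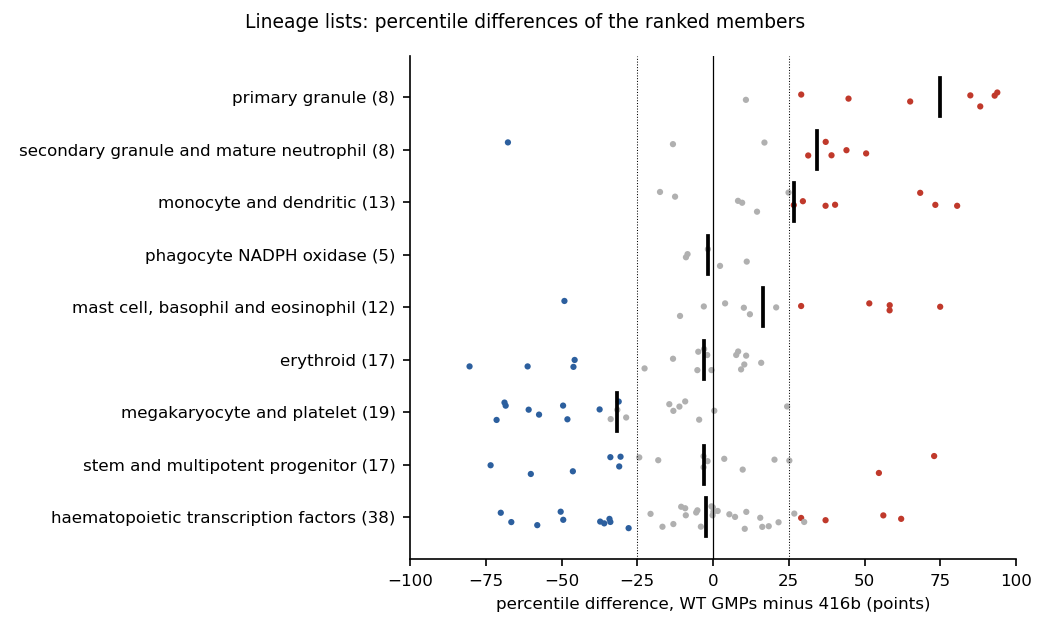
Percentile in WT GMPs (mean of 2 libraries) minus percentile in 416b Empty vector, in points, for the ranked members of 9 lineage lists, with the number ranked beside each name. Each point is 1 gene, red where called higher and blue where called lower in both WT libraries, black bars are list medians, and dotted lines mark 25 points. The primary granule median is 75.0 points and the megakaryocyte and platelet median -31.6 points.

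Mast cell, basophil and eosinophil genes had 9 of 12 ranked members above 0 points, 5 called higher, 1 called lower (beside 5.85% and 6.72% of all genes) and a median of 16.5 points. Of the 7 that reached 10 in both cells, 3 were called higher and 1 lower. Hdc, which makes histamine, had 9668 and 11419 against 130.1, and Cpa3, the mast cell carboxypeptidase, 3704 and 4619.7 against 230.0. Mcpt8, a protease of basophils, was at 2402 and 2237 against 30.9. Ms4a2, the beta chain of the IgE receptor, was at 1316 and 1228 against 3.63, and Mitf, a mast cell transcription factor, at 457 and 559 against 8.47. The eosinophil granule genes Prg2 (10394 and 5134) and Epx (2379 and 891) were read in both WT libraries, higher in the first, and are not in the 416b table. Markers of tissue mast cells were at or near 0 in WT, with Mcpt4 at 0 and 0.964, Tpsab1 at 0 and 0.964 and Tpsb2 at 1.99 and 0. Slc18a2, the vesicular monoamine transporter, went the other way, with 713 and 593 in WT and 4954 in Empty vector. AGATAA lay in 8 of 24 promoter windows of these genes (33.3%, beside 11.2% of all) and TGTGGT in 12 of 24 (50%, beside 16.8%). TTGCNNAA lay in 7 of 24 (29.2%, beside 10.8%) and AGGAAGT in 1 of 24 (4.17%, beside 9.35%). The Cpa3 promoter is printed for AGATAA at 46 bases before the start and ACCACA, the reverse complement of TGTGGT, at 73, marked as above.
Cpa3 promoter, chr3:20242182-20242431, minus strand: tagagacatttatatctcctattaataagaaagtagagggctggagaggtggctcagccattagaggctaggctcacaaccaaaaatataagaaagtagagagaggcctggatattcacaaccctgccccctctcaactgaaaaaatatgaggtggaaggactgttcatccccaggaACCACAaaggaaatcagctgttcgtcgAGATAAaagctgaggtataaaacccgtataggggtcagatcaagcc

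Megakaryocyte and platelet genes had the lowest median of the lineage lists. Of 19 ranked members, 9 were called lower in WT GMPs beside 6.72% of all genes, none was higher, and the median was -31.6 points. Itga2b, integrin alphaIIb, had 1686 and 2845 in WT and 22446 in Empty vector. Selp, P-selectin, had 346 and 422 against 28864, and Pf4, platelet factor 4, 216 and 1306 against 5769. Of the von Willebrand factor receptor complex, Gp9 was at 21.9 and 55.9 against 2383 and Gp5 at 47.7 and 163 against 2691, whereas its ligand-binding chain Gp1ba was low in both cells at 58.7 and 93.6 against 285. Clec1b, the podoplanin receptor CLEC-2, had 12.9 and 75.2 against 3817, Cd9, a tetraspanin, 728 and 1020.4 against 8713, and Mylk, myosin light chain kinase, 108 and 116 against 4575. The 416b values did not extend to the whole program. Ppbp, a platelet chemokine, stood at 149 in Empty vector, and Tubb1 and Gp6, which mark late platelet production, are not in the 416b table. Vwf was higher in WT, at 234 and 1579.8 against 131, through the second library. Pf4 is shown for its promoter, which held TTGCTAAA at 212 and ACTTCCT at 10 bases before the start and no AGATAA.
Pf4 promoter, chr5:90772185-90772434, plus strand: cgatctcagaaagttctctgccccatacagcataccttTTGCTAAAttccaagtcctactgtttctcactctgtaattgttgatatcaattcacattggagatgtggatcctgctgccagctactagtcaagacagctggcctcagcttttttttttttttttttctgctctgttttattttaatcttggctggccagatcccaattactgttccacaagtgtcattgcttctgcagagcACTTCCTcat

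AGATAA lay in 5 of 16 windows of the megakaryocyte list (31.2%) and in 9 of 18 windows of the erythroid list (50%), beside 11.2% of all windows. TGTGGT lay in 12.5% and 33.3% of the same windows, beside 16.8% of all. TTGCNNAA lay in 12.5% and 11.1%, beside 10.8%, and AGGAAGT in 12.5% and 0%, beside 9.35%. Erythroid genes were split in the line. Of 17 ranked members, 4 were called lower in WT GMPs and 0 higher (beside 6.72% and 5.85% of all genes), with a median of -2.96 points. The median was -18.77 points with unlisted genes set to 0 and -18.76 points over the 9 genes at 100 or more. Car2, carbonic anhydrase 2, had 850.2 and 1674 in WT and 70076 in Empty vector. Hbb-bt, an adult beta globin, had 24.9 and 178 against 15941, Hbb-bs 47.7 and 429 against 2338, and Hemgn, a nuclear protein of erythroid cells, 92.5 and 290.3 against 4008. The 2 beta globin genes are near copies, so reads may be shared between them. The alpha globins did not accompany them in 416b, where Hba-a1 stood at 2.42 and Hba-a2 at 2.42. Alas2, the erythroid enzyme of haem synthesis, stood at 5.45. Klf1, the erythroid Krüppel-like factor, was low in both cells, at 43.8 and 75.2 against 42.4. The second WT library held more erythroid RNA than the first for most members, for example 17.9 and 197 for Hba-a1. Summed over the list, the WT libraries held 1627 and 5927 normalized counts against 93413 in Empty vector. The megakaryocyte list summed to 8630.2 and 17356 against 110398. With the second WT library left out, 4 erythroid and 12 megakaryocyte genes were called lower and the medians were -11.06 and -46.5 points. With the first left out, the numbers were 4 and 9 and the medians 1.12 and -22.4 points, with 1 gene, Vwf, then called higher. The part of these cells in the results was not tested.

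**Figure D3:**
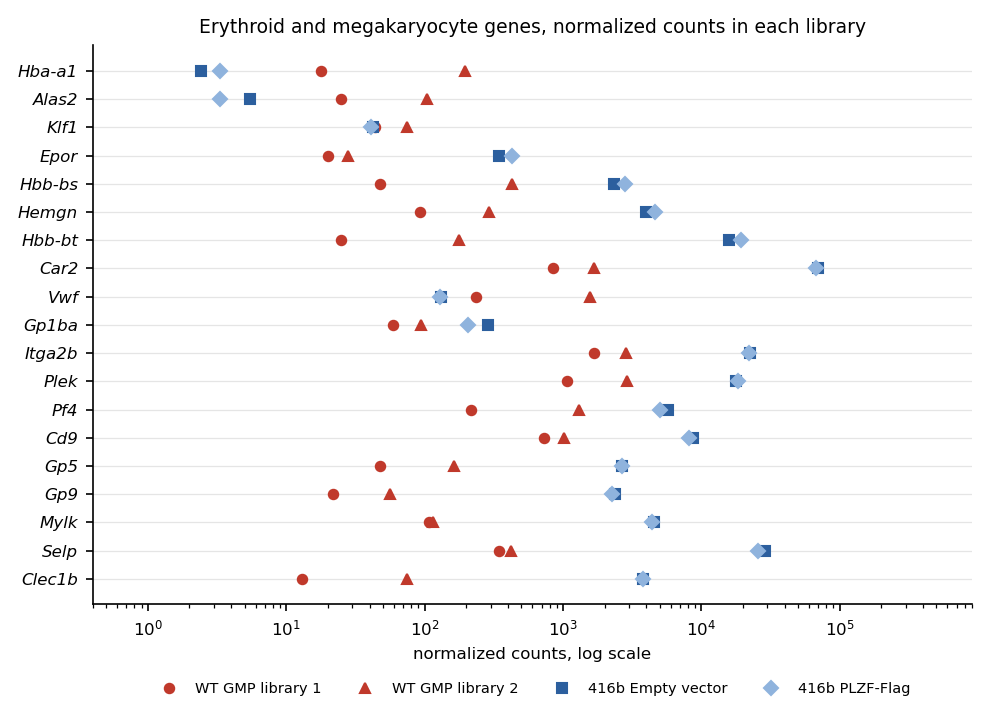
Normalized counts (log scale) of 8 erythroid and 11 megakaryocyte genes in each library, WT GMPs in red (circle, library 1, and triangle, library 2) and 416b cells in blue (square, Empty vector, and diamond, PLZF-Flag). The 416b values of Car2, Hbb-bt, Selp and Clec1b lie far to the right of both WT values, those of Hba-a1 and Alas2 to the left, and triangles lie to the right of circles in every row.

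Stem and multipotent progenitor genes diverged within the list, with 2 of 17 called higher and 6 lower (beside 5.85% and 6.72% of all genes). Of the 13 at 10 or more in both cells, 1 was higher and 6 were lower. On the 416b side were Eng, endoglin (554 and 677 against 15932), Esam, an endothelial and stem cell adhesion molecule (12.9 and 50.2 against 3809), and Mecom, the gene of the Evi1 stem cell factor (54.7 and 106 against 1656). Meis1, a partner of Hox proteins, had 877 and 1222 against 3851, and Mycn 29.8 and 30.9 against 648. On the GMP side were Cd48, which is lost from the most primitive stem cells and carried by GMPs (5007 and 5038 against 50.8), and Cd27, a receptor of the TNF family (1189 and 1663 against 3.23). Hoxa9 (609 and 791) and Flt3 (442 and 739.7) have WT values and no 416b value. B and T cell genes were low in WT GMPs. Summed over 14 B cell genes the WT libraries held 1828 and 1876 normalized counts, of which Cd79b, a chain of the B cell receptor, made up 1103 and 1055. Pax5 was at 5.97 and 2.89 and Ebf1 at 5.97 and 6.75. Over 15 T and NK cell genes the sums were 344 and 344, with Cd3e at 2.98 and 0 and Cd8a at 2.98 and 0.964.

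Transcription factors of blood cells were called in both directions. Of 38 ranked, 4 were called higher and 10 lower in WT GMPs (beside 5.85% and 6.72% of all genes), at a median of -2.28 points. Spi1, the gene of PU.1, was close in both, with 4723 and 3819 in WT and 5298 in Empty vector, as were Ikzf1, the lymphoid and myeloid factor Ikaros (5063 and 5558 against 5292), and Lmo2, a bridging protein of GATA complexes (9257 and 9514 against 9766). Runx1 stood at 2919 and 3481 against 2064. Cebpa, which directs progenitors to the GMP stage, was expressed in both and was not called (7318 and 5036 against 2673, 16.2 points). The 4 called higher were Cebpe, Irf8, Klf4 and Mitf, the last pair ranked through WT alone. Cebpe, required for secondary granules, had 2074 and 1444 against 12.1, and Irf8, required for monocytes and dendritic cells, 9786 and 9305 against 432. Gfi1, a repressor that promotes neutrophils, had 5861 and 5180.1 in WT and no 416b value. Its paralogue Gfi1b, which acts in erythroid and megakaryocyte cells, had 112 and 156 in WT and 5603 in Empty vector.

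Gata2 (chr6:88193891-88207032) had 701 and 607 normalized counts in WT GMPs and 12441 and 14121 in the Empty vector and PLZF-Flag libraries (-58.0 points, centred log2 ratio -4.36). Zfpm1, which encodes the GATA cofactor FOG-1, had 326 and 444 against 12823, and Tal1, a basic helix-loop-helix partner of GATA factors, 1398 and 1496 against 6727. Cbfa2t3, the corepressor Eto2 of the same complexes, was at 708 and 501 against 4877, and Runx3 at 728 and 659.7 against 5529.5. Gata1 and Klf1 stayed low beside them, as given above. Myb, needed for progenitor growth, had 34262 and 41713 in WT and 7076 in Empty vector, a log2 ratio of 2.31 that counted as higher by ratio although its percentile, near the top in both cells, differed by 7.25 points. Cebpb, which acts in emergency granulopoiesis, was lower in WT, with 360.0 and 132 against 1607.

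**Figure D4:**
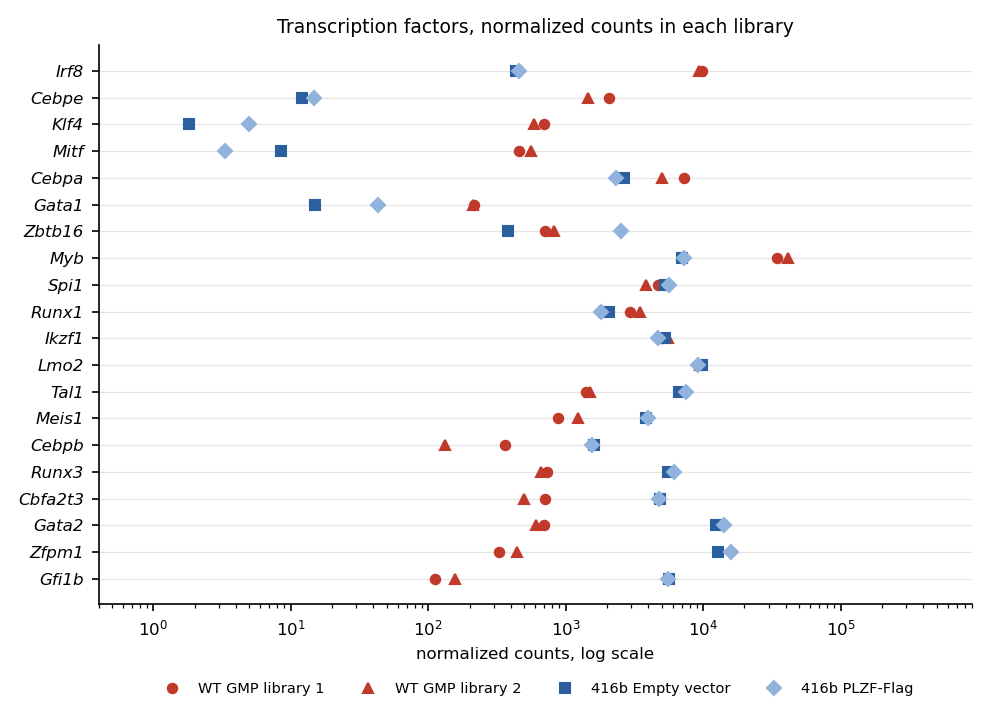
Normalized counts (log scale) of 20 blood cell transcription factors in each library, with WT GMPs in red (circle, library 1, and triangle, library 2) and 416b cells in blue (square, Empty vector, and diamond, PLZF-Flag). From Irf8 to Mitf the red points lie to the right, from Tal1 to Gfi1b the blue points do, and Spi1, Ikzf1 and Lmo2 overlap or nearly so.

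Of 27 ranked receptors for growth factors and cytokines, 7 were called higher in WT GMPs beside 5.85% of all genes, and 2 lower, near the share of 6.72%. Csf3r, the G-CSF receptor, had 6744 and 5993 against 200.1, Csf2ra, the specific chain of the GM-CSF receptor, 1273 and 1059 against 96.8, and Ifngr1, a chain of the interferon gamma receptor, 12727 and 16860.5 against 1552. Cxcr4, the marrow homing receptor, was at 8265 and 7315 against 885. The common beta chain Csf2rb was not called (6599.7 and 5150.2 against 4271), whereas Csf2rb2, the mouse beta chain specific to IL-3, was lower in WT (285 and 249 against 3064). These are close copies, and by their headers the GMP columns count only uniquely mapped reads. The part of this in the 2 values was not tested. Tgfbr2, a TGF-beta receptor, was also lower at 706 and 763 against 2634.

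Some genes that set entry into the cell cycle were higher in the line, while genes of the cycle itself were spread around 0. Of 28 ranked G1 cyclins, kinases, inhibitors and Myc family genes, 0 were called higher and 7 lower in WT GMPs (beside 5.85% and 6.72% of all genes). Of the 27 that reached 10 in both cells, 6 were called lower, and Cdkn2b was ranked through Empty vector alone. Ccnd1, cyclin D1, had 1638 and 928 in WT and 24724 in Empty vector, whereas Ccnd2 had 7353 and 6837 against 12968. Cdk6, the kinase that dominates in blood progenitors, was higher in WT by log2 ratio (29244 and 39616 against 6144, 2.37). The called genes included inhibitors as well as drivers. Cdkn1a, the p21 inhibitor, had 128 and 79.1 against 4399.7, and Cdkn2b, the p15 inhibitor, 0 and 0 in WT against 2057 in Empty vector, while its neighbour Cdkn2a stood at 0.994 and 0.964 against 7.87. Trp53, the gene of p53, was lower in WT as well, at 2373 and 1725 against 11362. Myc itself was not called, with 8895 and 6315 against 11616. Of 38 S phase genes, 1 was called higher and 0 lower, with a median of 0.703 points, and of 34 G2 and mitosis genes 0 and 1, with a median of -0.044 points. Over all settings tried, these medians ran from -0.27 to 1.54 and from -1.45 to 0.79 points. Mcm5, of the replicative helicase, had 22594 and 17922 against 17719, and Ccna2, cyclin A2, 11105 and 11065 against 13379. Cdc7, the kinase that fires replication origins, was the S phase gene called higher (2205 and 2237 against 602), and Ube2c, of the anaphase-promoting complex, the mitotic gene called lower (2213 and 2165 against 9969). With unlisted genes set to 0, no gene of either list was called. No mitotic gene was called with no filter or per kb of exon.

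Immediate early genes, which respond within minutes to handling and growth factors, differed between the WT libraries. Fos had 4281 and 11500.1 in WT and 69.0 in Empty vector, and Fosb 3197 and 7647 against 73.8, and both were called higher. Over the list the WT libraries summed to 23007 and 43062, with 24594 in Empty vector. Jund and Fosl1 were lower in WT, at 719 and 595 against 8370.3 and 25.9 and 33.8 against 734. In all, 2 of 19 were called higher and 3 lower, and with the first WT library left out 5 and 4.

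Of 30 ribosome biogenesis genes, 0 were called higher and 2 lower, a share close to the 6.72% of all genes called lower, namely Fbl, the fibrillarin methyltransferase (781 and 602 against 10683), and Gar1, of the pseudouridylation complex (1058 and 888 against 4598). Ncl, nucleolin, had 46328 and 46711 against 58304. Cytosolic ribosomal proteins lay mostly on the 416b side, with 67 of 82 below 0 points. By percentile, 2 were called higher and 16 lower, beside 5.85% and 6.72% of all genes. By log2 ratio, 2 were higher and 31 lower, beside 9.65% and 9.58%. Rpl36a had 528 and 409.9 against 13143 and Rps12 2498 and 1969 against 194. Many of these genes have processed copies in the genome, and by their headers the GMP columns count only uniquely mapped reads. Gapdh, a glycolytic enzyme with many such copies, was low in both tables, at 1485 and 1232 and 218. Transcripts without a poly(A) tail stood out in the total RNA libraries. Replication-dependent histone genes, whose transcripts end in a stem-loop, were called higher in 49 of 66 cases and lower in 0, with a median of 61.6 points (39 of 70 higher, 1 lower and 33.2 points with unlisted genes set to 0), and the list summed to 398202 and 295906 in WT against 5319 in Empty vector. Of the histone genes, 58 reached 10 in both cells, and 42 of these were called higher. Small non-coding RNAs followed, with 7 of 57 called higher by percentile and 48 of 57 by log2 ratio (beside 5.85% and 9.65% of all genes). Only 25 of the 57 reached 10 in both cells, and of these 3 were called higher by percentile. An example from the list is Rmrp, the RNA of RNase MRP (47723 and 23869 against 72.0). Mitochondrial ribosomal proteins had 0 of 77 called higher and 4 lower, and 8 lower with the first WT library left out, beside 6.72% of all genes called lower. For the histones and small RNAs the cell and the kit cannot be told apart.

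In central metabolism, no gene of the TCA cycle (of 25 ranked) or of nucleotide synthesis (of 25) was called, and the medians were 0.154 and 2.29 points. Over all settings tried the medians ran from -0.62 to 1.02 and from 0.12 to 3.53 points, with 1 nucleotide gene called lower when the first WT library was left out and 1 TCA cycle gene higher with a filter of 100. Cs, citrate synthase, had 11818 and 9113 in WT against 11610.4 in Empty vector, and Cad, which begins pyrimidine synthesis, 15845 and 11488 against 12039.7. Nuclear genes of oxidative phosphorylation had 0 of 78 called higher and 4 lower, a share under the 6.72% of all genes, and 63 of 78 lay below 0, at a median of -6.20 points. With the first WT library left out, 11 were lower. Per kb of exon, the median was -1.01. Atp5l, a small subunit of ATP synthase, was the most displaced, with 249 and 326 against 6334. The 13 mitochondrially encoded genes were listed at 0 in both WT libraries and were not in the 416b table, so they could not be compared.

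Glycolysis genes were called in both directions, isoforms and transporters among them. Of 22 ranked, 4 were called higher and 2 lower (beside 5.85% and 6.72% of all genes). Of the 21 that reached 10 in both cells, 3 were called higher and 2 lower, and Ldhb was ranked through WT alone. Pkm, pyruvate kinase, had 45450.2 and 38305 against 69959, and Ldha, lactate dehydrogenase A, 30363 and 20972 against 37620.3, and neither was called. Hk3, the hexokinase of myeloid cells, had 21907 and 21776 against 3109 and was higher by log2 ratio (2.70). Ldhb, the B chain of lactate dehydrogenase, had 334 and 614 against 1.21, and Slc16a3, the lactate exporter, 739 and 624 against 16.9. Slc2a1, the GLUT1 glucose transporter, was lower in WT at 691 and 474 against 2962, as was Pgk1, phosphoglycerate kinase (2327 and 1496 against 21779). Hypoxia-responsive genes were spread around the middle, with 1 of 14 called in each direction, and 2 lower with the first WT library left out. Egln3, an oxygen-sensing prolyl hydroxylase, had 1229 and 1216 against 5845, and P4ha1, a collagen prolyl hydroxylase, 3863 and 2391 against 846.

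Cholesterol synthesis and uptake had the lowest median of the metabolic lists. Of 24 genes, all ranked, 0 were called higher and 11 lower in WT GMPs beside 6.72% of all genes, 23 lay below 0 beside 6027 of all 12367 genes, and the median was -25.4 points. With unlisted genes set to 0 in 416b, 6 were called lower and the median was -20.89 points. Srebf2, which encodes the factor that switches on this pathway, had 2331 and 2046 in WT against 17231 in Empty vector. The called genes ran along the pathway. Hmgcs1, its HMG-CoA synthase, had 2052 and 1967 against 7216, Fdft1, squalene synthase, 449 and 382 against 2759.6, Sqle, squalene epoxidase, 1256 and 1313 against 6777, and the sterol demethylation enzymes Cyp51 and Msmo1 1230.0 and 1124 against 6464 and 785 and 797 against 6197. Dhcr7, which makes cholesterol from its last precursor, was at 758 and 651 against 2964. For each of these genes both WT values lay below both 416b values. The 416b cells grew in medium with fetal calf serum and the GMPs came from marrow, and these conditions cannot be told apart from the cell type.

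In fatty acid synthesis the desaturases were split and the core enzymes were not called. Fasn, fatty acid synthase, had 20713 and 13593 against 18857, and Acly, which supplies its acetyl-CoA, 17820.3 and 16016 against 19146. Scd2, a stearoyl-CoA desaturase, had 10853 and 9999 in WT against 5.45 in Empty vector (92.4 points). The polyunsaturated desaturases went the other way, with Fads1 at 1504 and 1553 against 23670.4 and Fads2 at 314 and 327 against 19536. Acsl4, which activates arachidonic acid, had 1583 and 2022 against 21166. The other stearoyl-CoA desaturase, Scd1, was at 165 and 155 in WT and is not in the 416b table. In all, 1 of 13 was called higher and 3 lower, the higher one being Scd2, which was ranked through WT alone, and of 17 fatty acid oxidation genes none was called, with a median of 0.768 points. That median ran from -2.36 to 1.89 points over all settings tried, and 1 gene was lower with the first WT library left out, 1 was higher per kb of exon, and 2 were higher and 1 lower with a filter of 100. Cpt1a, which admits fatty acids to mitochondria, had 6329 and 5515 against 1993.

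Serine, one-carbon and amino acid response genes had 1 of 25 called higher and 6 lower in WT GMPs (beside 5.85% and 6.72% of all genes). Of the 23 that reached 10 in both cells, 1 was higher and 5 were lower, and Trib3 was ranked through Empty vector alone. Asns, asparagine synthetase, had 1644 and 1320.3 against 6463, Slc1a4, a transporter of neutral amino acids, 98.4 and 92.6 against 2017, and Trib3, a pseudokinase of the stress response, 12.9 and 0.964 against 546. The serine enzymes Phgdh (7176 and 5168 against 3474) and Psat1 (9517 and 7321 against 8743) and the response factor Atf4 (9574 and 8401 against 12254) were not called. Glul, glutamine synthetase, was higher in WT at 3232 and 3067 against 1042. In haem and iron metabolism 4 of 20 were higher and 2 lower. Alas1, the housekeeping enzyme that begins haem synthesis and serves myeloperoxidase among other haem proteins, had 29872 and 27101 against 1231, and Ppox, of a later step, 1531 and 1445 against 287. Fth1, ferritin heavy chain, was lower by ratio (7615 and 6911 against 65263, -3.28). Of the antioxidant genes, Gstm1, a glutathione transferase, was called higher (7529 and 8528 against 73.8) and Gpx4, which reduces lipid peroxides, lower (1089 and 943 against 4268).

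Of 20 endoplasmic reticulum chaperone and unfolded protein response genes, 19 lay above 0, 1 was called higher (2 with the second WT library left out) and 0 lower, and the median was 4.61 points, which was 1.49 with GMPs of the mutant Zbtb16lu/lu genotype in place of WT and 1.79 with unlisted genes set to 0. The single call is read against 5.85% of all genes called higher. On the ratio scale the median was 1.29 log2 units, with 0 of 20 past the threshold of 2 in both libraries. Hspa5, the chaperone BiP, had 138662 and 78317 in WT against 26048 in Empty vector, and Calr, calreticulin, 185186 and 145772 against 61128. Hspa5 differed between the WT libraries, as did Creld2, another chaperone-like protein (10008 and 3101 against 2167). In the lysosome list 4 of 23 were called higher and 2 lower, but Ctsz and Ctsl passed the filter through WT alone, and 2 of the higher calls reached 10 in both cells. Ctsz, the protease cathepsin Z, had 12828 and 10222 against 7.87, Ctsl, cathepsin L, 903 and 938 against 4.84, and Ctsc, which activates the granule serine proteases, 5654 and 3835 against 731. Cd63, a tetraspanin of granules and lysosomes, was lower in WT at 1647 and 1481 against 9959.

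**Figure D5:**
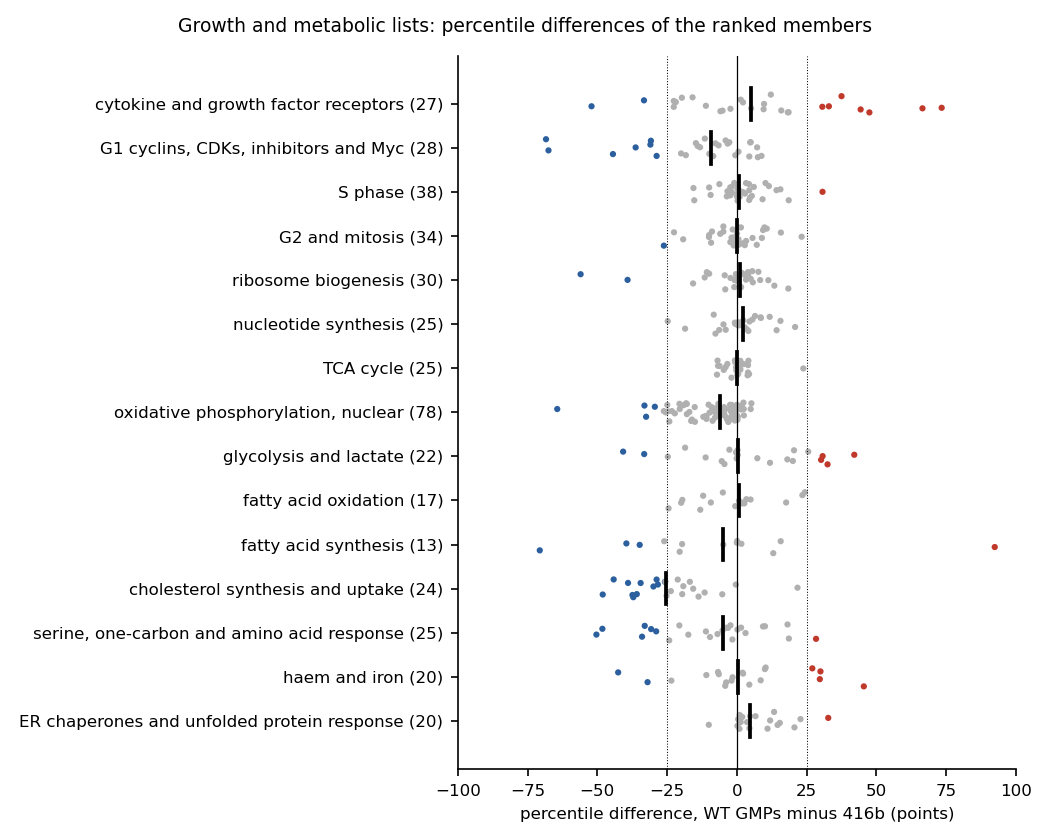
Percentile in WT GMPs (mean of 2 libraries) minus percentile in 416b Empty vector, in points, for the ranked members of 15 growth and metabolic lists, with the number ranked beside each name. Points, colours, bars and dotted lines are as in the plot of lineage lists. S phase, mitosis, nucleotide synthesis and TCA cycle genes gather around 0, and cholesterol genes lie to the left with a median of -25.4 points.

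Interferon-stimulated genes had 0 of 23 called higher and 2 lower (beside 5.85% and 6.72% of all genes), with Usp18, a brake on interferon signalling, at 84.5 and 64.6 against 816 and Bst2, tetherin, at 1314 and 939 against 3729. Their median was -11.0 points against Empty vector and -2.7 against the PLZF-Flag library, and -18.98 with unlisted genes set to 0. MHC class I genes had 1 of 18 called in each direction (2 lower with the second WT library left out) and H2-K1 at 24732 and 27670.0 against 14808. Sex-linked genes separated the cells, with Ddx3y of the Y chromosome at 2639 and 3399.7 against 4.24 and Xist, the RNA of the inactive X, at 14.9 and 32.8 against 2029 (PLZF-Flag 975). A list of 9 genes that the study named as bound by PLZF had 1 called higher and 0 lower (beside 5.85% and 6.72% of all genes), Ubash3a, a regulator of receptor signalling (3666 and 3134 against 866), with Cd47, the signal against phagocytosis, at 12281 and 14341 against 8160.3. Per kb of exon, 0 were called higher and 1 lower, and with unlisted genes set to 0 none was called.

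The 12 largest percentile differences on the GMP side were Hist1h1a, Gda, Clec12a, Mpo, Gatm, Hist1h2bb, Scd2, Slc28a2, Hist1h1b, Ctsz, Pygl and Scarna13. Apart from the 3 histone genes and the small nuclear Scarna13, these are polyadenylated transcripts. Gda, guanine deaminase, had 9669 and 10119 in WT and 1.82 in Empty vector, and Slc28a2, a purine nucleoside transporter, 6789 and 7851 against 1.82. Gatm, which begins creatine synthesis, had 7199 and 7208 against 0.605, and Pygl, a glycogen phosphorylase, 5995 and 7212 against 1.21. On the 416b side they were Tspan8, Sparc, Gem, Ildr2, Perp, Nrgn, Hbb-bt, Gm5643, Tmem254b, S100a6, Tbxa2r and Dusp4. Tspan8, a tetraspanin of epithelia, had 1.99 and 9.64 in WT and 8623 in Empty vector, and Sparc, a matrix glycoprotein also found in platelets, 1.99 and 2.89 against 6579. Perp, a p53 target that lies in desmosomes, had 53.7 and 62.7 against 19883, and Gem, a GTPase that restrains calcium channels, 13.9 and 47.3 against 17806. Tbxa2r, the thromboxane receptor of platelets, was at 2.98 and 19.3 against 3754, and Dusp4, a phosphatase of MAP kinases, at 30.8 and 20.3 against 4512. Tmem254b, at 0 in both WT libraries, belongs to a cluster of near-identical genes, and Gm5643 is a processed pseudogene. By their headers the GMP columns count only uniquely mapped reads, so both values are uncertain. The part of mapping in them was not tested.

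Many abundant GMP genes had no row for 416b. At a mean of 1000 or more in the WT libraries, 999 symbols were missing from the 416b table, of which 577 were annotated pseudogenes and 45 small RNAs. The 12 most abundant were Rn7sk, Rn7s1, Gm47287, Gm26917, Gm13340, Rn7s2, Gm11505, Gm47305, Gm13456, Gm29216, Gm28437 and Gm47295. Rn7sk, the RNA of transcription pausing, had 303788 and 195875 normalized counts, and Rn7s1 and Rn7s2, copies of the RNA of the signal recognition particle, 215118 and 211208 and 166051 and 174266. Another 140 were protein-coding both in GENCODE M21 and in RefSeq, and 119 of these had no other name in the 416b table, beside 6175 protein-coding genes at this level that were listed. A missing row means either 0 in a 416b library or a gene absent from the annotation used for that table, and these cannot be told apart. Without gene model names, the 12 most abundant were the 3 RNAs Rn7sk, Rn7s1 and Rn7s2 and then Ccnb1ip1, Elane, Ly6c2, Emb, Rn7s6, Rps3a3, Hp, Rps3a2 and Rnf213. Ccnb1ip1 (92533 and 36476) overlaps Rpph1, the RNA of RNase P, which has nearly the same values (92581 and 36481), so its reads are uncertain. Emb, a chaperone of lactate transporters, had 20536 and 24386, Hp, haptoglobin, 15680.4 and 11826, and Rnf213, a large ubiquitin ligase, 11964 and 12746. Rn7s6 had 17957 and 15449, Rps3a3 13634 and 18056 and Rps3a2 11654 and 15672.

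In the other direction, 95 genes had 1000 or more in Empty vector and under 10, or no row, in WT GMPs. Of these, 52 symbols were not in the GMP table, 26 of them under another name there, 18 were symbols that occur more than once, and 25 had a WT value under 10. Beside Tspan8, Sparc, Ildr2 and Cdkn2b, the last group held Dkk2, a Wnt pathway modulator (0.994 and 0 against 2513), Nr5a1, the steroidogenic factor SF-1 (1.99 and 0.964 against 1652), and Foxs1, a forkhead factor (0.994 and 0 against 1747). Ocln, occludin of tight junctions (0.994 and 0.964 against 1383), Cdh17, an intestinal cadherin (0.994 and 0.964 against 1336), and Fgf23, a phosphate hormone of bone (0 and 0 against 1124), were also there. These 6 were chosen from the 25 after their values were seen. In every case the PLZF-Flag library gave a value of the same order, for example 1649 for Nr5a1 and 1418 for Fgf23.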

How the data were processed

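RNA-seq was compared between 2 libraries of WT GMPs and 1 library of 416b Empty vector cells. Per the labels and the study's methods, GMP RNA was depleted of ribosomal RNA and sequenced as stranded paired ends, 416b cDNA was made with a poly(A)-primed low-input kit and sequenced as single ends, and both were aligned to mm10 with Subread, counted with featureCounts (1.5.0 in the submitters' processing notes, a version the methods give to the aligner) and normalized with DESeq2. The methods state 3 independent RNA extractions and sequencing runs for GMPs, and 2 WT columns were used here. The deposited values used here are the authors' normalized counts, that is read counts divided by a size factor for each library (a signal, not raw counts), scaled separately in each table. Per the file headers, the GMP values came from uniquely mapped reads, and for 416b this is not given in the sources used here. Whole reads were recovered from their smallest steps, with 96.0 to 100.0% of low values whole within 0.1 of a read. The authors' own comparison columns (means, log2 values, fold changes and p-values) were not used, and 0 columns of per-sample values were left unmapped.

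Tables were joined on gene symbol, leaving out 166 rows of repeated symbols, and 260 symbols of the 416b table found no partner. The annotation of each table is not given in the sources used here. Genes at 10 or more in the WT mean or in Empty vector were ranked within each library. Ratios were log2 of the value plus 1, centred by 0.12 and 0.08 for the WT libraries. Lengths, coordinates and types came from GENCODE M21, and promoters (32851 windows of 27025 genes) from RefSeq. Named were Mpo, Elane, Gata1 and Zbtb16, the 12 largest percentile differences in each direction, the 12 most abundant genes not in the 416b table with and without model names, and at most 8 members in each direction of each list. Other names are marked as chosen after their values were seen. Members and lists were chosen with earlier results of these data known. Alternatives were other libraries, filters, thresholds, pseudocounts, scaling to equal totals, lengths per kb and unlisted genes set to 0. Calculations used Python 3.11.15, numpy 2.4.6, pandas 2.3.3 and scipy 1.17.1, plots matplotlib 3.10.9, and the calling code was tested on simulated data. Intervals cover counting error only. Most list members enter only the counts, and some values are not reported here.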

Additional observations from a re-analysis of the deposited data

How the results depend on the processing

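No paired analysis was possible because 416b Empty vector is 1 library and the labels give the WT GMP columns no replicate numbers that 416b shares. The counts of called genes moved by over 1.5 times with the threshold and with the treatment of genes that have no row for 416b. By percentile, 1636 genes were higher and 1723 lower at 15 points, 375 and 403 at 35 points, and 2293 and 1717 with all genes of the GMP table ranked and unlisted genes set to 0 in 416b. That last setting kept 223 (30.8%) of the 723 higher and 590 (71.0%) of the 831 lower genes, and it turned the median of the sex-linked list to 46.84 points and that of the small non-coding RNAs to -0.83 points. In the lists, it changed the number called higher from 4 to 0 in glycolysis, from 4 to 1 in haem and iron, from 5 to 9 in mast cell genes, from 2 to 4 in stem cell genes and from 7 to 17 in small RNAs, and the number called lower from 2 to 7 in interferon genes, from 2 to 4 in receptors and from 4 to 2 in oxidative phosphorylation. By log2 ratio, 2511 were higher and 2579 lower at a threshold of 1, and 692 and 641 at 3. Of GMP genes with no 416b row, 3518 stood at 100 or more and 247 at 5000 or more. With each WT library left out in turn, the percentile counts ran from 783 to 902 higher and from 918 to 979 lower, the log2 counts from 1328 to 1419 and from 1399 to 1400, and the unlisted genes from 980 to 994. The other settings left the counts within 1.5 times. With length taken into account per kb of exon, 541 (74.8%) of the higher and 649 (78.1%) of the lower genes were shared with the main call. Per kb, the number called higher changed from 7 to 49 in small RNAs, from 4 to 2 in haem and iron and from 2 to 5 in ribosomal proteins, and the number called lower from 16 to 8 in ribosomal proteins. Of 232 called list members, 228 were still called with PLZF-Flag in place of Empty vector, 228 with the Zbtb16lu/lu libraries in place of WT, 224 with no filter, 224 with a filter of 100, 199 of the 231 with a length per kb of exon, and 158 with unlisted genes set to 0. With the histone, small RNA, mitochondrially encoded and ribosomal protein genes left out, 158 could be followed and 158 were still called. In these settings 0 changed direction. Depth limits low values, since 1 read was worth 0.606 normalized counts in Empty vector and 0.994 and 0.964 in the WT libraries.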

Other observations

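Some genes outside the lists differed as widely as the named ones and were chosen after their values were seen. Plac8, a small cysteine-rich protein of myeloid cells, had 77057 and 75447 normalized counts in the WT libraries against 20.0 in Empty vector. Foxj2, a forkhead factor, had 193 and 229 against 31325, with 31419 in PLZF-Flag. Malat1, a long nuclear RNA, had 30960.0 and 60309.8 against 746, and it lacks an ordinary poly(A) tail, so that the kit and the cell cannot be told apart for it.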
